A study of Mus musculus with 20 samples.

Results

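The left ventricle of 6 DOXO mice was compared with that of 4 sham mice, none of which had received folic acid (FA). These are 10 of the 20 arrays in the series, taken by their sample labels. All mice were male C57BL/6, 2 months old by the labels, and ate placebo without FA. DOXO (doxorubicin) mice received a single intraperitoneal dose of 20 mg/kg, sham mice received saline by the same route, and tissue was taken at day 10. The DOXO group holds mice that lived to that day after a single high dose, and each array holds bulk ventricle from 1 mouse, so that fewer cells of a type and less RNA per cell cannot be told apart. The other 10 arrays, of 4 FA-sham and 6 FA-DOXO mice that received 10 mg of FA daily, starting 7 days ahead of the injection, entered the fits and are used here only for a side by side comparison.

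Doxorubicin is an anthracycline that traps topoisomerase II on DNA and drives redox cycling in mitochondria, and its use in cancer care is limited by damage to heart muscle. Metallothioneins and glutathione enzymes are among the defences that cells raise against metals and oxidants. A ventricle under load or injury turns on genes of the fetal heart, and injury elsewhere in the body raises secreted acute-phase proteins and glucocorticoids, to which the heart also responds.

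Each array reports a log2 signal for 34760 transcript clusters, of which 21640 carry 1 gene symbol. How far these signals spread differed within the groups. The SD over all clusters was 1.19, 1.50, 1.43 and 0.941 on the arrays of sham 1 to 4, and 1.43, 0.994, 0.909, 1.03, 1.50 and 0.907 on those of DOXO 1 to 6. Above an SD of 1.1 an array is called wide here, otherwise narrow, which gives 3 wide of 4 sham arrays and 2 wide of 6 DOXO arrays. Sham 2 and 3 and DOXO 1 and 5 are matched in spread, with SDs of 1.43 to 1.50, and sham 4 is matched with DOXO 2, 3, 4 and 6, at 0.907 to 1.03. For this reason differences are taken from a limma fit without covariate and from one with the array SD as a covariate, and each value is given with the fit it comes from. That covariate has 1 slope per gene for all groups, so the fit presumes the same slope in sham and DOXO mice. The differences between the matched wide arrays and between the narrow arrays, which have no test, stand beside many of these values. Differences are DOXO minus sham in log2 units, each followed by its standard error (SE).

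All 10 ventricular markers of the tissue check lay above the array median in every mouse of both groups. Tnni3, cardiac troponin I, ranged from 11.73 to 13.61 in sham and from 10.08 to 13.48 in DOXO mice. Of the 6 atrial markers, Myl7 and Sln stayed at or below 6.82 in all 10 mice, and Dkk3 at or below 6.99. The others were not low throughout, with Nppa from 8.42 to 11.49, Myl4 up to 8.42 and Tbx5 up to 8.50. The mean of the 6 ran from 7.00 to 7.30 in sham and from 6.93 to 7.68 in DOXO mice. The mean signal of the 10 ventricular markers ran from 9.46 to 12.86 in sham and from 8.55 to 12.52 in DOXO mice, with the lowest values of both groups on narrow arrays.

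Without covariate, 364 clusters passed an unadjusted p of 0.01, 185 of them higher in DOXO mice (0.532% of all clusters tested) and 179 lower (0.515%). After Benjamini-Hochberg adjustment, 1 of them remained (0.00288%), which belongs to adult beta-globin. With the array SD in the fit, the unadjusted threshold was passed by 1440 clusters, of which 1091 were higher (3.14%) and 349 lower (1.0%), and 59 passed an adjusted p of 0.05 (0.17%), 47 higher and 12 lower. The 59 clusters include 47 with 1 gene symbol, for 46 genes. The fits shared 340 of their unadjusted calls. The split into higher and lower depends on the scaling. With each array centred on its median, the fit without covariate gave 137 higher and 323 lower. In the fit with the array SD, that centring gave 619 higher and 615 lower, quantile normalization gave 423 and 305, the wide arrays alone gave 484 and 704, and leaving out sham 1 gave 838 and 859. The median difference of all clusters was 0.10 without covariate and 0.04 with the array SD. All 59 adjusted clusters had the same sign between the matched wide arrays and between the narrow arrays, as had 1270 of the 1440 unadjusted calls and 15007 of all 34760 clusters. The 59 were picked by a fit to these same arrays at equal array SD. Like signs are therefore nearly built in and are no separate support. The number of adjusted calls depends on single mice. The 59 fell to 1 without sham 2, to 4 without sham 3 and to 4 without DOXO 5, and rose to 960 without sham 4.

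Metallothioneins, small cysteine-rich proteins that bind zinc and copper, held the largest rise of any cluster with 1 gene symbol. Mt2 stood at 9.36, 9.10, 9.37 and 7.22 in sham 1 to 4, and at 13.25, 11.12, 9.80, 11.62, 13.05 and 10.43 in DOXO 1 to 6. Every DOXO mouse lay above every sham mouse, on wide and on narrow arrays alike. Mt2 differed by 2.78 (SE 0.75, limma adjusted p = 0.647) without covariate and 3.42 (SE 0.47, adjusted p = 0.0115) with the array SD, a 10.7-fold difference. The exact permutation test gave p = 0.00952, the smallest that 6 mice against 4 allow (two-sided). Genes given an exact p here were named in part by their difference in these same mice, so that p only describes the separation of the groups. Over all clusters, 74 (0.213%) were higher in DOXO mice without overlap. Mt2 differed by 3.92 between the matched wide arrays (array SD 1.43 to 1.50) and by 3.53 between the narrow arrays (array SD 0.907 to 1.03).

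Mt1, its neighbour on the chromosome, was at 8.61, 9.26, 9.52 and 7.94 in sham mice and at 11.45, 9.13, 7.95, 9.44, 11.75 and 8.24 in DOXO mice. The groups overlapped, and only DOXO 1 and 5 lay above all sham mice. Mt1 rose with the array SD in the fit, by 1.49 (SE 0.26, limma adjusted p = 0.032), and was at 0.83 (SE 0.67, adjusted p = 0.647) without it. Between the matched wide arrays Mt1 differed by 2.22 and between the narrow ones by 0.75. Of the 4 metallothionein genes matched, 2 passed the unadjusted threshold with the array SD, both higher, where 3.14% of all clusters were.

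The promoters of this gene pair are shown because both genes rose and because zinc-sensing transcription of metallothioneins acts through metal response elements. The 250 bases before each start are given 5′ to 3′ from RefSeq (GRCm38.p6, plus strand), Mt2 at chr8:94172368-94172617 and Mt1 at chr8:94178839-94179088. Capitals mark matches to the element's core, searched as TGCACNC and TGCGCNC on both strands.
Mt2: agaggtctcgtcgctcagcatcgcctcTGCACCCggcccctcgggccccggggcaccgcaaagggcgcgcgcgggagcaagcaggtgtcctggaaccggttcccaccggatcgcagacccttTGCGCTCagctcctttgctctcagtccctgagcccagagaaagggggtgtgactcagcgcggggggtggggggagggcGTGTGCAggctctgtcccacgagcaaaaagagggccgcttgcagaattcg
Mt1: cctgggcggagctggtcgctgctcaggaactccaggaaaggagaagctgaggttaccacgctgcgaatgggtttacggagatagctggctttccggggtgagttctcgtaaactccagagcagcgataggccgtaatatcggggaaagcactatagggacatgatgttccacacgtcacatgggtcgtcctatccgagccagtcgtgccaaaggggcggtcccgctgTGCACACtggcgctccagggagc
The Mt2 window holds 3 matches, 2 on the plus strand and 1 on the minus strand, and the Mt1 window holds 1. Both windows are set by the annotated starts, and bases outside them were not searched. The counts therefore do not compare the whole promoters of the genes. Among the promoters of 27025 genes, cut to the same length, 21.3% hold at least 1 match and 1.28% hold at least 3. A match is a description of these letters, and binding was not measured.

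Several secreted proteins were far higher in the DOXO mice on wide arrays, above all Lcn2 and Serpina3n. Lcn2, lipocalin 2, which binds bacterial iron carriers and is a marker of tissue stress, was at 6.30, 6.40, 6.37 and 6.52 in sham mice and at 11.16, 7.95, 6.60, 7.56, 11.73 and 6.92 in DOXO mice. The 4 sham mice were close together whatever the spread of their arrays, and all 6 DOXO mice lay above them (exact permutation p = 0.00952). The Lcn2 difference was 2.97 with the array SD (SE 0.57, limma adjusted p = 0.0444) and 2.25 (SE 0.87, adjusted p = 0.647) without covariate. It was 5.06 between the matched wide arrays and 0.73 between the narrow ones. The fit gives all groups 1 slope on the array SD, 5.18 for Lcn2, which the flat sham values do not follow. The 2.97 is therefore not a difference that holds at every spread.

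Serpina3n, a serine protease inhibitor of the acute-phase response, was at 6.59, 7.34, 7.08 and 6.83 in sham mice and at 10.70, 8.09, 6.99, 9.22, 12.38 and 7.06 in DOXO mice. DOXO 3 and 6, with the narrowest arrays of the group, fell within the sham range, and the other 4 lay above it. The difference was 2.11 (SE 0.85, limma adjusted p = 0.647) without covariate and 2.84 (SE 0.52, adjusted p = 0.0385) with the array SD, 4.33 between the matched wide arrays and 1.01 between the narrow ones. Saa3, a serum amyloid A protein, was at 6.17, 5.42, 5.66 and 6.52 in sham mice and at 7.23, 6.71, 6.79, 6.82, 8.49 and 6.72 in DOXO mice, with no overlap. Its difference was 1.18 (SE 0.29, limma adjusted p = 0.647) without covariate and 1.21 (SE 0.30, adjusted p = 0.108) with the array SD, past the unadjusted threshold in both.

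Timp1, an inhibitor of matrix metalloproteinases, was at 6.15, 5.97, 6.02 and 6.24 in sham mice and between 6.29 and 8.44 in DOXO mice (median 7.05), again without overlap. Its difference was 1.02 (SE 0.40, limma adjusted p = 0.647) without covariate and 1.23 (SE 0.35, adjusted p = 0.159) with the array SD, where it passed the unadjusted threshold. Cp, ceruloplasmin, the copper-carrying ferroxidase of plasma, rose by 0.95 (SE 0.17, limma adjusted p = 0.0378) with the array SD, against 0.10 (SE 0.82) without it. Of 24 matched acute-phase and secreted stress proteins, 9 passed the unadjusted threshold with the array SD, all higher, where 3.14% of all clusters did. Without covariate 2 of the 24 passed, both higher. The median of this list was 0.19 with the array SD, against 0.04 over all clusters, and 0.05 between the narrow arrays, and 6 of the 24 passed with quantile normalization. Outside this list, the lipid carrier Apod was at 7.26, 7.44, 7.51 and 7.35 in sham mice and between 7.39 and 10.66 in DOXO mice (median 8.08). Apod rose by 1.63 (SE 0.30, limma adjusted p = 0.0399) with the array SD and was at 1.17 (SE 0.52, adjusted p = 0.647) without it. It differed by 2.72 between the matched wide arrays and by 0.40 between the narrow ones.

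**Figure D1:**
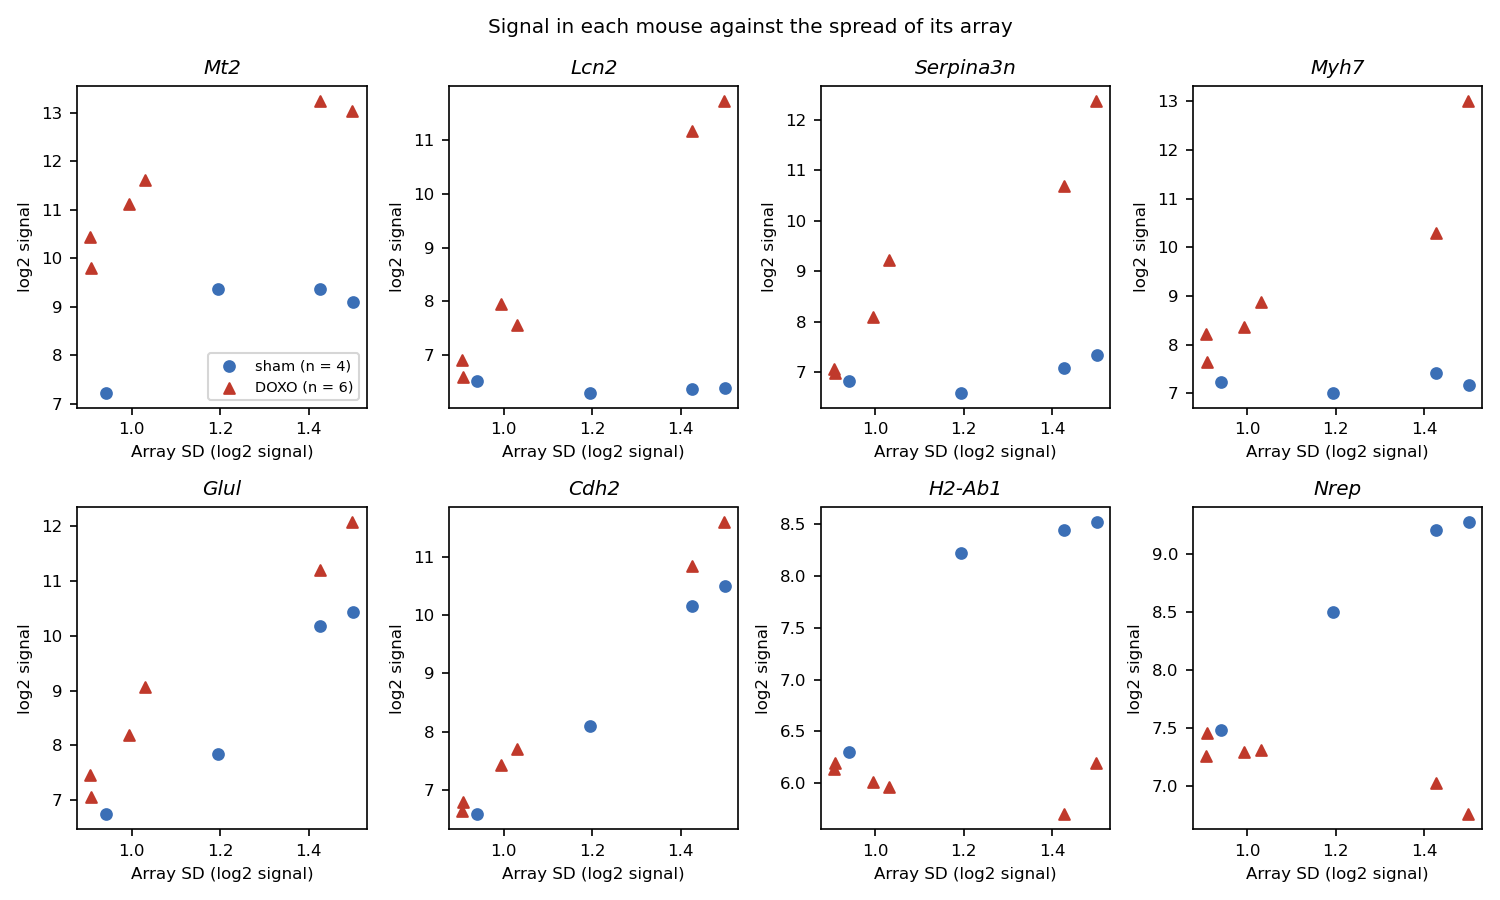
Log2 signal of 8 genes (vertical axis) against the SD of the mouse's array in log2 units (horizontal axis), 1 point per mouse, sham as blue circles (n = 4) and DOXO as red triangles (n = 6). Lcn2 and Myh7 stay flat over the sham arrays and climb over the DOXO arrays, Glul and Cdh2 climb in both groups with DOXO above sham at like SD, and H2-Ab1 and Nrep climb over the sham arrays only. The fit with the array SD gives each gene 1 slope for all groups, which Lcn2, Myh7, H2-Ab1 and Nrep do not follow. Serpina3n, which climbs far more over the DOXO arrays than over the sham arrays, does not follow it either.

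Myh7, the slow beta myosin heavy chain of the fetal ventricle, was the contractile gene that differed most. It was at 7.01, 7.17, 7.42 and 7.24 in sham mice and at 10.29, 8.37, 7.64, 8.87, 13.01 and 8.22 in DOXO mice. All 6 DOXO mice lay above all 4 sham mice (exact permutation p = 0.00952). Myh7 rose by 2.92 (SE 0.55, limma adjusted p = 0.0399) with the array SD and was 2.19 (SE 0.87, adjusted p = 0.647) higher without covariate. It differed by 4.36 between the matched wide arrays and by 1.03 between the narrow ones.

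Ccn2, connective tissue growth factor, which responds to stretch, was at 7.57, 8.77, 8.43 and 7.24 in sham mice and at 9.77, 7.92, 7.35, 8.48, 12.76 and 7.60 in DOXO mice. DOXO 5 stood far above DOXO 1, the next highest, and the groups overlapped. The Ccn2 difference was 1.73 (SE 0.39, limma adjusted p = 0.0817) with the array SD, past the unadjusted threshold only, and 0.97 (SE 0.80, adjusted p = 0.647) without it. Of 21 matched fetal and stretch genes, 5 passed that threshold with the array SD, all higher, against 3.14% of all clusters, and 0 passed without covariate. In limma without covariate 1 of the 21 passed an unadjusted p of 0.05. The list median was 0.15 with the array SD and -0.03 without it. Among the 5 were Fhl1 at 1.06 and Corin, the protease that activates natriuretic peptides, at 0.59, which were at 0.26 and -0.12 without covariate. The natriuretic peptide genes did not pass the unadjusted threshold, with Nppa at 0.32 (SE 0.44, adjusted p = 0.813) and Nppb at 0.71 (SE 0.31, adjusted p = 0.355) with the array SD, and Nppa was at -0.32 without covariate.

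Genes of the sarcomere and Z disc did not move one way. Of 29 matched members, 3 were higher and 2 lower with the array SD at the unadjusted threshold, where 3.14% and 1.0% of all clusters were. Among the higher were desmin (Des, 1.17) and alpha-actinin 2 (Actn2, 0.96), which were at -0.21 and -0.36 without covariate. Lower were Lmod3, a leiomodin that lengthens thin filaments, at -0.98 (SE 0.25), and Mylk4, a myosin light chain kinase, at -1.24 (SE 0.37). These 2 also passed without covariate, at -1.40 and -1.67. The median of the list was -0.72 without covariate and 0.05 with the array SD. At the intercalated disc, Cdh2, N-cadherin, was at 8.11, 10.49, 10.15 and 6.58 in sham mice and at 10.84, 7.42, 6.80, 7.71, 11.59 and 6.64 in DOXO mice. The ranges overlapped widely, and Cdh2 was highest on the widest arrays of both groups. Its difference was -0.33 (SE 1.03, adjusted p = 0.866) without covariate and 0.75 (SE 0.12, limma adjusted p = 0.0252) with the array SD, 0.89 between the matched wide arrays and 0.56 between the narrow ones. Pkp2, the desmosome's plakophilin 2, was likewise at -0.25 and 0.54 (SE 0.13, adjusted p = 0.0975). Adam4, of the ADAM family of cell-surface metalloproteases, was at 6.49, 6.60, 6.32 and 6.86 in sham mice and at 6.04, 6.19, 6.50, 6.21, 5.82 and 6.58 in DOXO mice. Of these DOXO mice, 4 lay below all sham mice. Its difference was -0.46 (SE 0.09, limma adjusted p = 0.0532) with the array SD and -0.34 (SE 0.15, adjusted p = 0.647) without it.

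Of 35 matched genes of mitochondrial complex I, 0 passed the unadjusted p of 0.01 in either limma fit, and 0 passed 0.05. Their median difference was -0.84 without covariate, with 0 of 35 above 0, and -0.14 with the array SD. It was -0.18 between the matched wide arrays and 0.04 between the narrow ones. For the 34 genes of complexes II to V the medians were -0.83 and -0.16, and for 36 genes of fatty acid uptake and oxidation -0.56 and 0.12. Of these 2 lists, Cox7a1 alone, the heart form of a cytochrome oxidase subunit, passed the unadjusted threshold, at -1.0 (SE 0.33, limma adjusted p = 0.219) with the array SD.

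Of 34 matched enzymes of the antioxidant and glutathione system, 11 were higher and 1 lower at the unadjusted threshold with the array SD, where 3.14% and 1.0% of all clusters were, and 22 did not pass. The median was 0.35 with the array SD and 0.19 between the narrow arrays. Median centring gave 11 calls in all and quantile normalization 8. Without covariate, 1 member was higher, 1 lower and the median was -0.14. Mgst1, a microsomal glutathione transferase, was at 7.66, 8.32, 7.93 and 6.26 in sham mice and at 10.79, 8.00, 6.52, 7.88, 10.27 and 6.50 in DOXO mice, and rose by 1.59 (SE 0.31, limma adjusted p = 0.0444) with the array SD, against 0.78 (SE 0.82, adjusted p = 0.668) without it. DOXO 1 and 5 lay above all sham mice, and the narrow DOXO arrays lay within the sham range. Nqo1, a quinone reductase and a classical target of the oxidant sensor Nrf2, was at 7.20, 8.42, 8.41 and 6.16 in sham mice and at 9.78, 7.75, 6.23, 6.92, 11.15 and 6.11 in DOXO mice. Its difference was 1.33 (SE 0.27, limma adjusted p = 0.0559) with the array SD and 0.44 (SE 0.88, adjusted p = 0.792) without it. Gpx3, the secreted glutathione peroxidase, was at 9.13, 10.01, 9.91 and 6.20 in sham mice and at 12.03, 9.45, 6.66, 9.02, 11.77 and 7.21 in DOXO mice. Its difference was 0.54 (SE 1.15, limma adjusted p = 0.805) without covariate and 1.67 (SE 0.46, adjusted p = 0.151) with the array SD, 1.94 between the matched wide arrays and 1.89 between the narrow ones. Gpx3 was chosen after its values were seen.

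Gclm, the regulatory subunit of the enzyme that limits glutathione synthesis, rose by 1.12 (SE 0.22, limma adjusted p = 0.0444) with the array SD and was at 0.38 (SE 0.74, adjusted p = 0.789) without it. With the array SD, Gstm2, a cytosolic glutathione transferase, was at 0.89 (SE 0.18, adjusted p = 0.0517), and Hmox1, haem oxygenase 1, at 0.98 (SE 0.29, adjusted p = 0.174), which were at 0.22 and 0.75 without covariate. The member that was lower was Gstt1, at -0.53 (SE 0.15, adjusted p = 0.151) with the array SD and -0.66 (SE 0.19) without it, with 0.02 between the narrow arrays. Gclm, Gstm2 and Nqo1 were all higher between the narrow arrays too, by 0.50 to 0.60, while Hmox1 was at -0.07 there.

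Glul, glutamine synthetase, and Clu, clusterin, a secreted chaperone, had the smallest p-values after Mt2 among the genes with 1 symbol in the fit with the array SD. Glul was at 7.85, 10.43, 10.17 and 6.74 in sham mice and at 11.21, 8.19, 7.07, 9.06, 12.07 and 7.46 in DOXO mice. Each DOXO mouse was above the sham mouse with the nearest array SD, although the groups overlapped (exact permutation p = 0.79). Glul rose by 1.44 (SE 0.21, limma adjusted p = 0.0115) with the array SD and was at 0.38 (SE 1.02) without it. The second Glul cluster gave 1.30. Clu was at 7.79, 9.80, 9.20 and 6.89 in sham mice and at 10.90, 7.97, 6.92, 8.40, 11.94 and 7.21 in DOXO mice, and rose by 1.44 (SE 0.21, limma adjusted p = 0.0115) with the array SD, against 0.47 (SE 0.93, adjusted p = 0.791) without it.

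**Figure D2:**
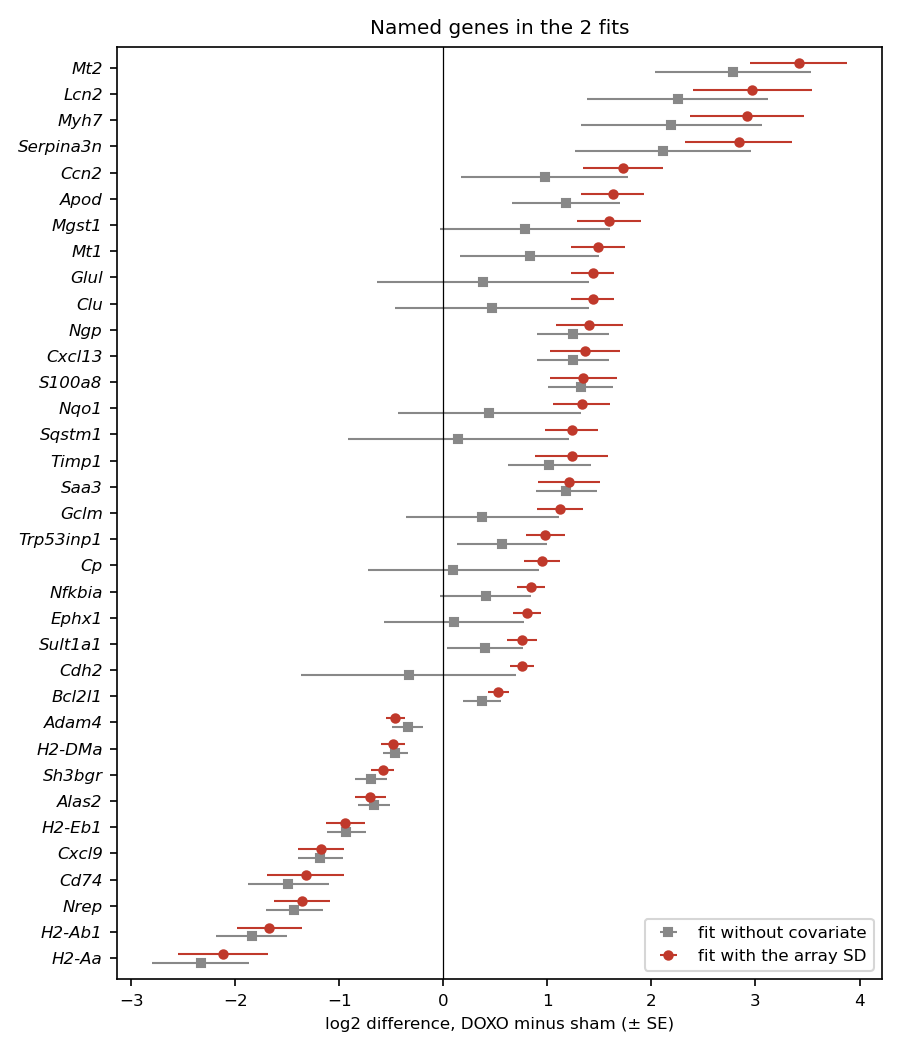
Log2 difference DOXO minus sham (horizontal axis, bars are ± SE) of 35 named genes in the fit without covariate (grey squares) and with the array SD (red circles), sorted by the second. For genes such as Glul, Clu and Cdh2 the SE falls from between 0.93 and 1.03 to between 0.12 and 0.21 and the difference moves up, while for H2-Aa, Cxcl9, S100a8 and Ngp both fits give nearly the same value.

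Of 28 matched genes that glucocorticoids are known to induce, 10 were higher and 0 lower at the unadjusted threshold with the array SD, where 3.14% of all clusters were higher. Median centring and quantile normalization gave 10 in all as well. Without covariate 1 was higher and 0 lower. The list median was 0.54 with the array SD, 0.26 without covariate and 0.10 between the narrow arrays. Mt2, Mt1 and Lcn2 belong to this list too. Sult1a1, a sulfotransferase, rose by 0.76 (SE 0.14, limma adjusted p = 0.0444) with the array SD and was at 0.40 (SE 0.37, adjusted p = 0.653) without it. With the array SD, Sgk1, the serum and glucocorticoid-regulated kinase, was at 0.97 (SE 0.19, adjusted p = 0.0501) and Fkbp5, a co-chaperone of the receptor, at 0.84 (SE 0.22, adjusted p = 0.131), with -0.03 between the narrow arrays. Without covariate they were at 0.46 and 0.65. Circadian clock genes gave 1 higher and 1 lower of 17 with the array SD, where 3.14% and 1.0% of all clusters were. The lower one was the clock output factor Dbp, at -1.01 (SE 0.30, limma adjusted p = 0.183) with the array SD and -1.34 (SE 0.43) without it. Dbp differed by -2.15 between the matched wide arrays and by -0.05 between the narrow ones.

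Of 30 matched proteolysis and autophagy genes, 10 were higher and 0 lower with the array SD (median 0.29), against 3.14% and 1.0% of all clusters, and 7 passed with quantile normalization. Among them were Bnip3, a mitophagy receptor, at 1.32 (SE 0.33), Sqstm1, the autophagy adaptor p62, at 1.24 (SE 0.25), Map1lc3b, a core autophagosome protein, at 0.88 (SE 0.24), and Psmd11 of the proteasome lid at 0.69 (SE 0.16). Without covariate these 4 lay between 0.09 and 0.42. The median of the list was 0.36 between the matched wide arrays and 0.32 between the narrow ones. Without covariate 0 of 30 passed an unadjusted p of 0.01 or of 0.05 in limma, and the median was -0.09.

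Targets of p53, the factor that DNA damage activates, passed in 6 of 29 with the array SD, all higher, where 3.14% of all clusters were higher. Without covariate 0 of 29 passed an unadjusted p of 0.01 or of 0.05 in limma. The list had a median of 0.08 with the array SD that became -0.01 with quantile normalization. Trp53inp1, a p53-induced stress protein, was at 6.88, 7.71, 7.61 and 6.70 in sham mice and at 9.05, 6.98, 7.01, 7.35, 9.40 and 6.96 in DOXO mice, where DOXO 1 and 5 stood apart. It rose by 0.98 (SE 0.19, limma adjusted p = 0.0444) with the array SD and was at 0.56 (SE 0.43, adjusted p = 0.647) without it. Ephx1, microsomal epoxide hydrolase, rose by 0.80 (SE 0.13, limma adjusted p = 0.0263) with the array SD and was at 0.10 (SE 0.68, adjusted p = 0.937) without it. With the array SD, the death receptor Fas was at 0.66 (SE 0.13, adjusted p = 0.0526) and the growth brake Btg2 at 1.11 (SE 0.31, adjusted p = 0.151), which were at 0.34 and 0.51 without covariate. Bcl2l1, which encodes the survival protein Bcl-xL, rose by 0.53 (SE 0.10, limma adjusted p = 0.0444) with the array SD and was at 0.37 (SE 0.18, adjusted p = 0.647) without it. Immediate early genes, the first to answer a stimulus, were higher in 6 of 25 and lower in 0 with the array SD, and higher in 1 without it, with all 25 differences above 0 and a median of 0.32 with the array SD. That median was 0.58 between the matched wide arrays and 0.01 between the narrow ones. Of 22 genes of topoisomerases and doxorubicin handling, 1 was higher and 0 were lower with the array SD, where 3.14% and 1.0% of all clusters were. In the cell cycle list 0 of 31 genes were higher and 3 lower in that fit, with a list median of -0.05. The 3 include cyclin D1 (Ccnd1) at -0.73 and Cdk1 at -0.42. Between the narrow arrays these genes were at 0.01 and -0.18, against -1.55 and -0.66 between the matched wide ones.

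**Figure D3:**
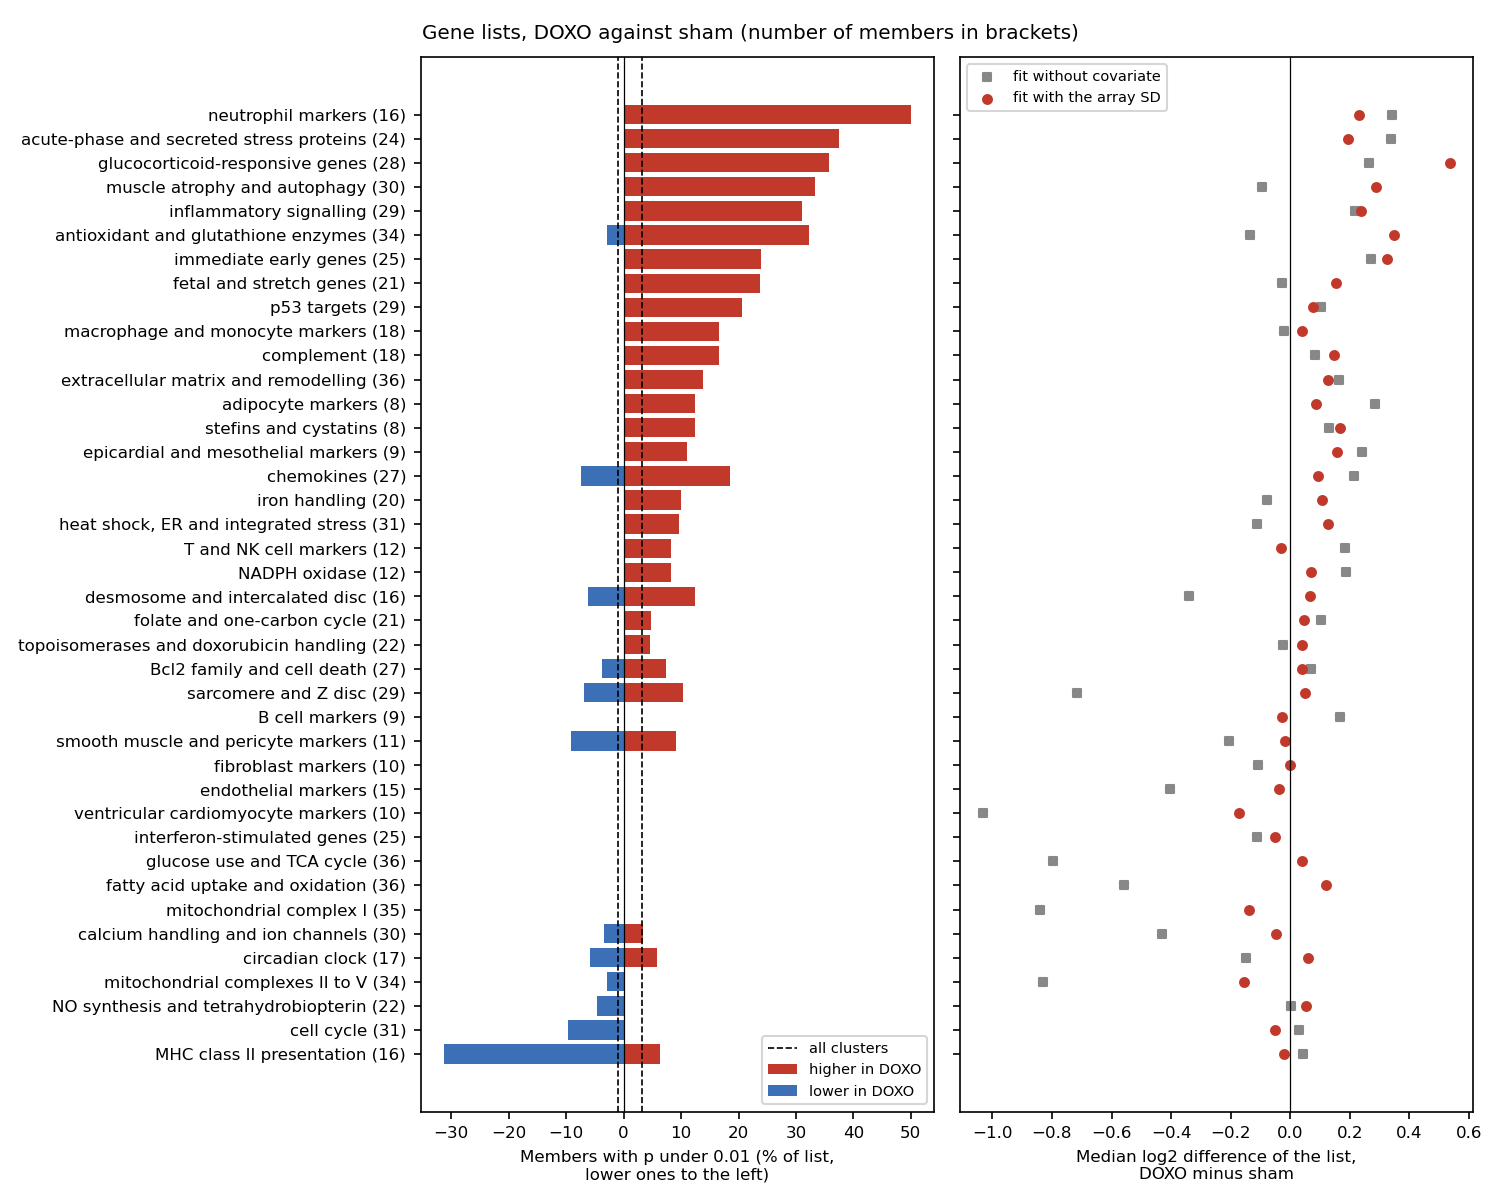
Left, share of each gene list with an unadjusted p under 0.01 in the fit with the array SD (horizontal axis, % of members, higher in DOXO to the right in red, lower to the left in blue), with dashed lines at the shares of all clusters, 3.14% and 1.0%. Right, median log2 difference of the same lists without covariate (grey squares) and with the array SD (red circles); the medians of complex I and of the ventricular markers move from -0.84 and -1.03 to -0.14 and -0.17, while those of neutrophil genes move from 0.34 to 0.23.

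Inflammatory signalling genes were higher in 9 of 29 and lower in 0 with the array SD, where 3.14% of all clusters were higher, and 5 passed with quantile normalization. Without covariate 2 of 29 passed, both higher. The list median was 0.24 with the array SD, 0.22 without it and 0.04 between the narrow arrays. Nfkbia, the inhibitor that NF-kB itself induces, was at 7.21, 8.01, 7.94 and 6.95 in sham mice and at 8.91, 7.39, 7.05, 7.61, 9.50 and 7.14 in DOXO mice. It rose by 0.84 (SE 0.14, limma adjusted p = 0.0263) with the array SD and was at 0.41 (SE 0.44, adjusted p = 0.673) without it, with 1.23 between the matched wide arrays and 0.35 between the narrow ones. With the array SD, Osmr, the oncostatin M receptor, was at 0.99 (SE 0.22), Cebpd, an acute-phase transcription factor, at 0.74 (SE 0.17), and Icam1, an adhesion molecule for leukocytes, at 0.44 (SE 0.12), all past the unadjusted threshold only. Without covariate they were at 0.42, 0.62 and 0.38.

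Neutrophil markers had the highest share of calls among the lists with 8 or more members. Of 16 matched genes, 8 were higher with the array SD and 6 without covariate, where 3.14% and 0.532% of all clusters were. In either fit 0 were lower. With quantile normalization and the array SD, 5 of the 16 passed. S100a8, a calcium-binding protein stored in neutrophils, was at 5.88, 5.25, 5.62 and 6.27 in sham mice and at 8.61, 6.82, 6.62, 6.62, 6.95 and 6.83 in DOXO mice. No values overlapped, and the difference was 1.32 (SE 0.31, limma adjusted p = 0.647) without covariate and 1.35 (SE 0.32, adjusted p = 0.0967) with the array SD. Ngp, a granule protein, was at 5.64, 5.10, 5.27 and 5.74 in sham mice and at 7.65, 6.03, 5.97, 6.09, 8.18 and 6.16 in DOXO mice, a difference of 1.25 (SE 0.35) without covariate. Without covariate, S100a9, the partner of S100a8, was at 0.74 (SE 0.19), Retnlg, a secreted resistin-like protein, at 0.91 (SE 0.31) and the collagenase Mmp8 at 0.54 (SE 0.15), against 0.70, 1.11 and 0.53 with the array SD. Stfa2, a stefin found in neutrophils and kept on another list, was at 0.81 (SE 0.26) without covariate and 0.91 (SE 0.25) with the array SD. Lcn2 is on the neutrophil list too. Between the narrow arrays the other genes of this paragraph differed by 0.05 to 0.45, against 1.06 to 2.74 between the matched wide ones. The mean signal of the 16 markers ran from 5.69 to 6.42 in sham and from 6.42 to 6.85 in DOXO mice, near the array medians of 6.23 to 6.62. How much of Lcn2 and of the acute-phase genes comes from neutrophils was not tested.

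Chemokines moved in both directions. Of 27 matched genes, 5 were higher and 2 lower with the array SD, and 3 were higher and 2 lower without it. Over all clusters, 3.14% were higher and 1.0% lower with the array SD, and 0.532% and 0.515% without it. In the fit with the array SD, 3 of the 27 passed with median centring and 3 with quantile normalization. Cxcl13, which attracts B cells, was at 6.58, 5.65, 5.78 and 6.66 in sham mice and at 8.50, 6.94, 6.72, 6.66, 8.62 and 7.05 in DOXO mice. The lowest DOXO value and the highest sham value both round to 6.66, and the groups did not overlap. The difference was 1.25 (SE 0.34, limma adjusted p = 0.647) without covariate and 1.36 (SE 0.34, adjusted p = 0.106) with the array SD. Cxcl13 differed by 2.84 between the matched wide arrays and by 0.19 between the narrow ones. Cxcl9, a chemokine that interferon gamma induces, was lower in every DOXO mouse, at 8.53, 8.03, 8.54 and 7.27 in sham mice and at 6.75, 7.06, 7.13, 7.04, 6.38 and 7.11 in DOXO mice. It fell by 1.18 (SE 0.22, limma adjusted p = 0.0399) with the array SD and differed by -1.18 (adjusted p = 0.307) without it. Cxcl9 differed by -1.72 between the matched wide arrays and by -0.19 between the narrow ones.

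MHC class II genes, which present antigen on macrophages, dendritic cells and B cells, included the largest difference downward of any cluster with 1 symbol, that of H2-Aa. H2-Aa was at 9.07, 9.27, 9.29 and 6.37 in sham mice and at 5.99, 6.18, 6.29, 6.36, 5.88 and 6.30 in DOXO mice. All DOXO mice lay below all sham mice, but sham 4 stood just above the highest DOXO mouse. The difference was -2.33 (SE 0.47, limma adjusted p = 0.324) without covariate and -2.12 (SE 0.43, adjusted p = 0.0548) with the array SD, -3.35 between the matched wide arrays and -0.09 between the narrow ones. H2-Ab1 was at 8.22, 8.52, 8.44 and 6.30 in sham mice and at 5.70, 6.01, 6.19, 5.96, 6.19 and 6.14 in DOXO mice, and fell by 1.67 (SE 0.31, limma adjusted p = 0.0399) with the array SD, against -1.84 (SE 0.34) without it. H2-Eb1 also fell, by 0.94 (SE 0.18, limma adjusted p = 0.0444) with the array SD and by 0.93 without it. Cd74, the invariant chain, was at -1.49 (SE 0.39) and H2-DMa, which loads peptide, at -0.46 (SE 0.12) without covariate, against -1.32 (SE 0.37) and -0.48 (SE 0.11) with the array SD, past the unadjusted threshold in both fits. Between the narrow arrays, H2-Ab1 was at -0.23, H2-Eb1 at -0.13, Cd74 at -0.15 and H2-DMa at -0.10. Between the matched wide arrays these genes were at -2.54, -1.46, -2.86 and -0.81.

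Of the 16 genes on the MHC class II list, 5 were lower in each fit, where 1.0% of all clusters were with the array SD and 0.515% without it. The protease Ctss was higher with the array SD, at 0.21. The list median was -0.02 with the array SD. DOXO and sham mice did not overlap for 48 clusters with lower values in DOXO (0.138% of all) and for 74 with higher values (0.213%), and 4 of the 16 are among the first. Of 18 macrophage and monocyte markers, 0 were lower and 3 higher with the array SD, where 1.0% and 3.14% of all clusters were. The 3 were Lyve1 at 0.55, C1qa at 0.37 and Cd68 at 0.31, which were at 0.17, 0.10 and 0.11 without covariate. Of 9 B cell markers 0 passed 0.01 and 1 passed 0.05 in the limma fit with the array SD, and their mean signal ran from 5.89 to 6.62 in sham and from 5.82 to 6.65 in DOXO mice. Ly86, a partner of a Toll-like receptor on macrophages and B cells, was at -1.35 (SE 0.47, adjusted p = 0.647) without covariate and -0.99 (SE 0.33, adjusted p = 0.223) with the array SD. Interferon-stimulated genes passed in 0 of 25 in both limma fits, and 1 passed 0.05 in each. Ifi203, an interferon-inducible gene outside that list, was at -1.53 (SE 0.45, adjusted p = 0.647) without covariate and -1.17 (SE 0.29, adjusted p = 0.112) with the array SD.

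Other falls were of mixed kinds. Nrep, a neuronal regeneration protein also found in repairing tissue, was at 8.51, 9.28, 9.21 and 7.48 in sham mice and at 7.03, 7.30, 7.46, 7.31, 6.75 and 7.26 in DOXO mice, without overlap, and fell by 1.36 (SE 0.27, limma adjusted p = 0.0497) with the array SD, against -1.43 (SE 0.27) without it. BC028528 fell by 0.91 (SE 0.17, limma adjusted p = 0.0399) and Sh3bgr by 0.58 (SE 0.11, adjusted p = 0.0399) with the array SD, and they were at -1.07 and -0.69 without it. The secreted phospholipase Pla2g5 was at -1.66 (SE 0.44) and the lipase Ces1d at -1.48 (SE 0.43) without covariate, both past the unadjusted threshold, and at -1.31 and -1.12 with the array SD. Differences between the narrow arrays were -0.32 for Pla2g5, -0.13 for Ces1d and -0.15 for Nrep, against -1.78, -2.12 and -2.35 between the matched wide arrays.

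The cluster called after adjustment in both fits carries the symbols of several genes of adult beta-globin, so no single name is given. It was at 12.14, 12.13, 11.96 and 9.86 in sham mice and at 6.86, 6.93, 6.53, 6.73, 6.28 and 7.00 in DOXO mice. The groups stood far apart, even at sham 4. The difference was -4.63 (SE 0.54, limma adjusted p = 0.00319) with the array SD, -5.47 between the matched wide arrays and -3.07 between the narrow ones. Alas2, which starts haem synthesis in red cell precursors, was at 6.84, 6.71, 6.77 and 6.17 in sham mice and at 5.81, 6.09, 6.11, 6.18, 5.54 and 6.03 in DOXO mice. Its difference was -0.70 (SE 0.15, limma adjusted p = 0.0618) with the array SD and -0.06 between the narrow arrays. Of the 5 erythroid genes with a cluster of their own, Alas2 was the 1 that passed.

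In the extracellular matrix list 5 of 36 genes were higher and 0 lower with the array SD (median 0.13), where 3.14% and 1.0% of all clusters were. The 5 include Timp1 and the stromelysin Mmp3, the latter at 0.73 (SE 0.19, limma adjusted p = 0.133). Without covariate 3 were higher, and with quantile normalization and the array SD 3 passed. Complement gave 3 higher of 18 with the array SD, namely Clu, C1qa and C4b, the last at 0.55 (SE 0.13, adjusted p = 0.0936), and C4b alone passed without covariate, at 0.47. Fibroblast markers passed in 0 of 10 and endothelial markers in 0 of 15 in both limma fits, where 1 and 0 passed 0.05 with the array SD. The mean signal of the endothelial markers ran from 6.98 to 8.97 in sham and from 6.93 to 8.99 in DOXO mice, with the high end of both groups on wide arrays.

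The same injection was given to mice on FA, whose arrays share none with the comparison above. In the fit with the array SD, FA-DOXO differed from FA-sham in 371 of 34760 clusters at the unadjusted p of 0.01, against 1440 without FA. After adjustment 9 remained, against 59 without FA. Mt2 was 3.01 (SE 0.46) higher there, close to the 3.42 without FA. Myh7 was 1.64 (SE 0.54) higher, Lcn2 1.14 (SE 0.56) and Serpina3n 0.71 (SE 0.51), each smaller than without FA. For Glul the values were 0.39 with and 1.44 without FA, for Clu 0.31 and 1.44, for Nfkbia 0.04 and 0.84, and for H2-Ab1 -0.55 and -1.67. Of the 59 clusters called after adjustment, 51 had the same sign with FA and 57 a smaller size, which follows in part from choosing them by their size without FA. Among the 1440 unadjusted calls, chosen likewise, 867 had the same sign and 1420 a smaller size. Like signs over all clusters were not counted.

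In DOXO against sham, 1 of 21 genes of the folate and one-carbon cycle was higher and 0 were lower with the array SD. Over all clusters, 3.14% were higher and 1.0% lower in that fit. Of 22 genes of NO synthesis and its cofactor tetrahydrobiopterin, 0 were higher and 1 was lower.

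The test of the difference itself, the interaction in limma, called 0 clusters after adjustment in either fit, with a smallest adjusted p of 0.110 with the array SD and 0.570 without. At an unadjusted p of 0.05 it called 3000 with the array SD and 1803 without. Among the genes named, the interaction with the array SD was 1.12 for H2-Ab1 (limma adjusted p = 0.544), -1.04 for Glul (adjusted p = 0.535), -0.81 for Nfkbia (adjusted p = 0.535) and -2.13 for Serpina3n (adjusted p = 0.538). For Mt2 it was -0.40 (adjusted p = 0.888). The array SD was lower in the FA groups as well, with 7 of these 10 arrays narrow, and what part this has in the smaller differences was not tested.

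**Figure D4:**
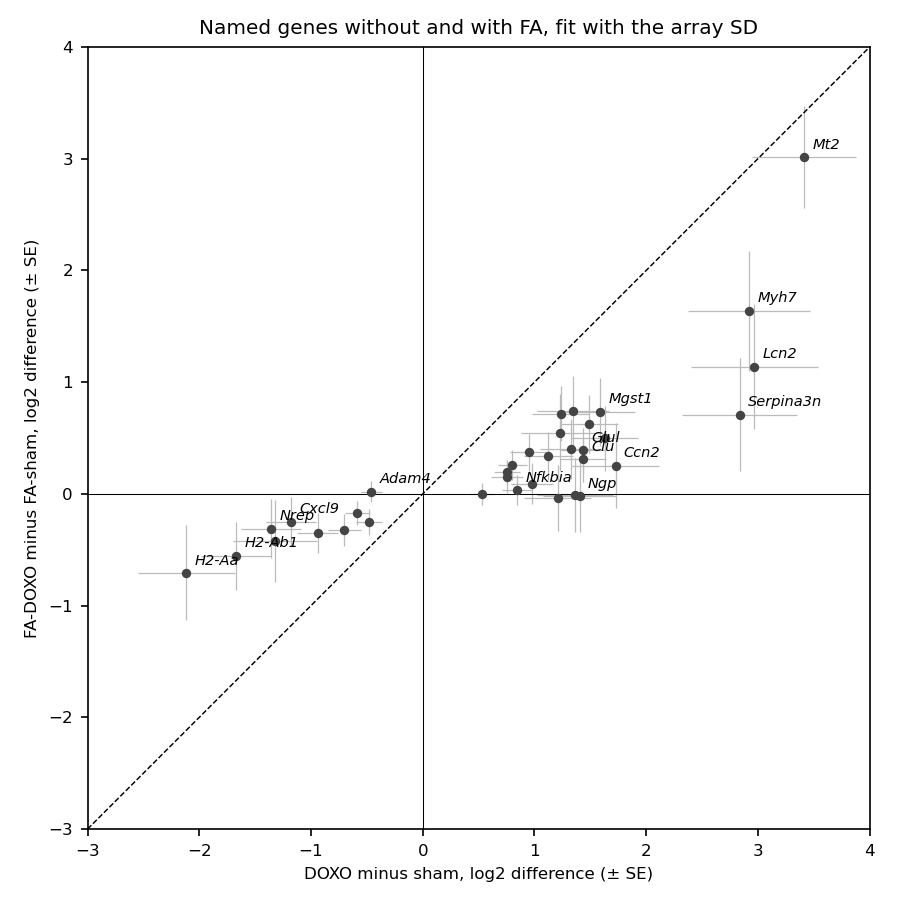
Log2 difference of 35 named genes in DOXO against sham mice (horizontal axis) and in FA-DOXO against FA-sham mice (vertical axis), with bars for ± SE, both from the fit with the array SD; the dashed line marks equal differences. Mt2 lies near that line at 3.42 and 3.01, while Lcn2 (2.97 and 1.14), Serpina3n (2.84 and 0.71) and Glul (1.44 and 0.39) lie below it.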

How the data were processed

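Left ventricles of 20 mice were each hybridised to 1 Mouse Gene 1.0 ST array (Affymetrix). The authors deposited log2 signals per transcript cluster, made with R 2.14.2 and Bioconductor packages, and the sources used here do not give the background correction or normalization. Array quantiles differ, and the number of arrays limits the precision. Of 34760 clusters, 21640 had 1 gene symbol in the platform annotation, 1321 several and 11799 none. No cluster was filtered. Groups came from the sample labels. limma 3.58.1 (R 4.3.3) was fitted to all 20 arrays with 1 mean per group, two-sided, once without covariate and once with each array's SD over all clusters, with Benjamini-Hochberg adjustment over all clusters. Thresholds were an unadjusted p of 0.01, as in the study's methods, and an adjusted p of 0.05. The fits were run on simulated data with 1 slope on the array SD for all groups. Such data cannot show how the fits behave where the slopes differ. Exact permutation tests ran over 210 arrangements.

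The genes named were drawn from the 10 clusters with the largest difference each way among those called without covariate, up to 15 adjusted calls each way with the array SD, up to 4 members per gene list by p, and genes the study names. A further 8 were chosen after their values were seen, the beta-globin cluster, Gpx3, Fkbp5, Sgk1, Map1lc3b, S100a9, Ctss and Gstt1. Members and the 43 gene lists were chosen with earlier results of these data known. Lists share members. Nothing states whether mice shared litters or cages. Alternatives were median centring, quantile normalization, a filter on low signals, array weights, a trended fit, a replicate block, the 10 arrays alone, wide or narrow arrays alone and leaving out each mouse; the matched wide arrays were added after seeing the data.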

Additional observations from a re-analysis of the deposited data

Results flagged for a closer look

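Within each group, the highest and the lowest mouse were compared with their nearest neighbour as a share of the group's range, for 56 sets of mice. In 6 sets the gap passed Dixon's critical value (0.829 for 4 mice, 0.625 for 6), where chance gives about 1 in 20. Sham 4, the only narrow sham array, was the lowest of 4 for H2-Aa (gap 0.925 of the range), H2-Ab1 (0.865), Mt2 (0.876) and the beta-globin cluster (0.923). DOXO 1 was highest for S100a8, at 8.61 against 6.95 in the next mouse (0.833). DOXO 5 was highest for Saa3, at 8.49 against 7.23 (0.711). The part of the array spread in these gaps was not tested.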

How the results depend on the processing

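Without covariate, 364 clusters had an unadjusted p under 0.01. The count was 137 with a filter on low signals, 201 on narrow arrays only, 95 on the 10 sham and DOXO arrays only, 1440 with the array SD, and 137 to 2581 with 1 mouse left out (sham 2 and sham 4). The 1 adjusted call became 0 with the replicate block (limma, 4656 at an unadjusted p under 0.05) and 0 on narrow arrays only (1078), 59 with the array SD, and 1 to 39 with 1 mouse left out. With the array SD, the 1440 clusters became 769 with the replicate block, 816 with the filter, 304 on narrow arrays, 728 with quantile normalization, 550 on the 10 arrays, and 878 to 2788 with 1 mouse left out. The 59 adjusted calls became 8 with the replicate block, 39 with median centring, 3 with quantile normalization, 2 on the 10 arrays, 2 on wide arrays, 0 on narrow arrays (1470 at an unadjusted p under 0.05), 0 with array weights (3821), and 1 to 960 with 1 mouse left out. Array weights could not be fitted without covariate. The cause of these changes was not tested. Around their group means, same-numbered sham and DOXO arrays correlated at -0.115, -0.799, -0.795 and 0.451. Arrays of other numbers but like spread also correlated, as sham 2 with DOXO 5 (0.870) and sham 4 with DOXO 3 (0.889). Because the correlations go with the spread, they cannot tell whether replicate numbers pair the mice. The block gave 444 unadjusted calls without covariate.

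For leaving out mice, each named cluster was followed only in the fit that gave it the smaller p. In that fit 24 had an adjusted p under 0.05. All 24 kept an unadjusted p under 0.01 with each of 10 mice left out, and 1, the beta-globin cluster, kept the adjusted threshold. H2-Ab1, Cxcl9 and Nrep were followed without covariate and are not among the 24, although they passed the adjusted threshold with the array SD. Without the array SD, the direction turned for Actn2 (-0.36), Cdh2 (-0.33), Corin (-0.12), Des (-0.21), Nppa (-0.32) and Pkp2 (-0.25), and on narrow arrays only for Ccl3 (-0.0168), Fkbp5 (-0.0201), Hmox1 (-0.0984) and Gstt1 (0.0125).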
